A study of Mus musculus with 6 samples.

Results

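The cell cycle regulators described here are 44 genes: the cyclins, the cyclin-dependent kinases (CDKs) and their inhibitors, the retinoblastoma (Rb) and E2F families, and the Cdc25, Wee1, Skp2, Myc, Mybl2 and Foxm1 genes that act on them. They are a list of gene names among the 54232 genes counted by RNA-seq in primary mouse uterine stromal cells. The cells came from females aged 8 to 12 weeks on day 4 of pseudopregnancy, when a mouse uterus is receptive to an embryo (1 label field says pregnancy). The 3 WT libraries carry that name in the labels, whereas the study describes its controls as Pbrm1 fl/fl littermates, so the controls may carry the floxed alleles too. The 3 Pbrm1 cKO libraries came from Pbrm1 fl/fl females with PR-IRES-cre, in which Cre is made wherever the progesterone receptor is expressed, epithelium included, and removes Pbrm1, the gene of a subunit of the SWI/SNF (PBAF) chromatin remodeler. Per the labels, 5 to 10 uterine horns were digested for a preparation, and the cells were plated for 4 hours and, after a change of medium, for 2 more. The study calls the 3 libraries of a group biological replicates, and the sources used here do not say more about which animals went into each, so the p-values measure the spread between these samples.

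Progress through the cell cycle is driven by CDKs, which are active only when bound to a cyclin. D-type cyclins with Cdk4 and Cdk6, and then E-type cyclins with Cdk2, phosphorylate the Rb proteins and release E2F transcription factors, which turn on the genes of DNA replication. A-type cyclins with Cdk2 and then Cdk1 carry the cell through S phase and G2, B-type cyclins with Cdk1 carry it through mitosis, and the INK4 and Cip/Kip proteins hold the kinases in check. In the mouse uterus, progesterone with estrogen is known to make the stroma proliferate before the embryo attaches, and D-type cyclins are among the genes that respond.

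Total counts were 13253575 to 18338667 per library. Pbrm1 itself gave 1354, 1385 and 1677 DESeq2 normalized counts (counts divided by a size factor per library) in WT, against 397, 459 and 451 in Pbrm1 cKO, a fall to 29.6% of WT (log2 fold change -1.76 ± 0.13 SE, adjusted p = 5.19e-40). Over the genes that varied most between these libraries, the first principal component held 82.4% of the variance and separated the genotypes. The second (7.72%) set WT replicate 1 apart. Stromal markers Vim and Pdgfra were high in every library (Vim between 27268 and 36871, Pdgfra between 13916 and 17884 normalized counts). In Pbrm1 cKO, Vim was lower (log2 fold change -0.27 ± 0.09, adjusted p = 0.0124). Pdgfra, unlike the other stromal markers past the threshold, was higher (0.23 ± 0.08, adjusted p = 0.0216). Leukocyte markers moved with the genotype: 15 of 16 were higher in Pbrm1 cKO, and their summed level was 308.0 CPM (counts scaled to library size) in WT replicate 1, 676.4 and 653.2 in the other WT libraries, and 2881 to 3022 in Pbrm1 cKO. Ptprc, which marks all leukocytes, stood at 172, 369.6 and 325 and then 1138, 1069.9 and 1105 normalized counts, and Cd74, a marker of antigen-presenting cells, at 681, 1007 and 851 and then 7426, 7067 and 6537. The summed level of the 18 epithelial markers was 133.8, 242.6 and 228.6 CPM in WT replicates 1, 2 and 3, and 268.0 to 282.3 in Pbrm1 cKO (5 of 17 tested were higher). That of the 12 endothelial markers was 130.1, 373.3 and 325.1 in the same order, and 128.8 to 141.6 in Pbrm1 cKO (4 lower, 1 higher). WT replicate 1 thus lay within the endothelial range of Pbrm1 cKO. The 12 smooth muscle markers summed to 4091 to 4394 in WT and 3845 to 3984 in Pbrm1 cKO (6 of 11 tested were lower). The 14 stromal markers summed to 7727 to 8921 and 6712 to 7190 (6 lower, 1 higher). No list had a marker without a count. Of all tested genes, 15.2% were lower and 15.9% higher by the same test (DESeq2, adjusted p under 0.05). The part of these cells in the levels below was not tested, and in bulk RNA fewer cells of a type and less RNA per cell cannot be told apart.

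Most of the cell cycle regulators were lower in Pbrm1 cKO cells. Of the 44, 43 had a count and 42 could be tested. The RNA of 23 fell and that of 5 rose past an adjusted p of 0.05 (DESeq2 Wald test, Benjamini-Hochberg adjustment over all 17474 genes tested), where 15.2% of all tested genes fell and 15.9% rose. As shares of those tested, 54.8% of the regulators fell and 11.9% rose. Their median log2 fold change (Pbrm1 cKO over WT) was -0.71, against -0.00074 over all genes tested. Falls of at least 2-fold were seen in 10, namely Ccnd3, Ccne1, Ccne2, Ccna2, Ccnb1, Cdk1, Cdkn2c, E2f7, E2f8 and Mybl2, a size of fall that 5.31% of all tested genes reached. Myc and E2f2 rose at least 2-fold, as 5.76% of all tested genes did. Libraries of WT and Pbrm1 cKO did not overlap for any of the 28 called genes, nor for 8 of the 14 that did not pass. How often the groups stay apart over all tested genes was not counted, so no trait of the regulators is read from this. Summed leukocyte and epithelial markers were higher across the same libraries as the 5 genes that rose. Summed stromal and smooth muscle markers were lower across the same libraries as the 23 that fell (values above). The part of these cells in either was not tested. In each fit that left out 1 library, 19 regulators were lower. The number higher was 5 without WT replicate 1 or Pbrm1 cKO replicate 1, 6 without WT replicate 3, 4 without WT replicate 2 or Pbrm1 cKO replicate 3, and 3 without Pbrm1 cKO replicate 2, and 21 of the 28 calls held under every alternative that gave a value.

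**Figure D1:**
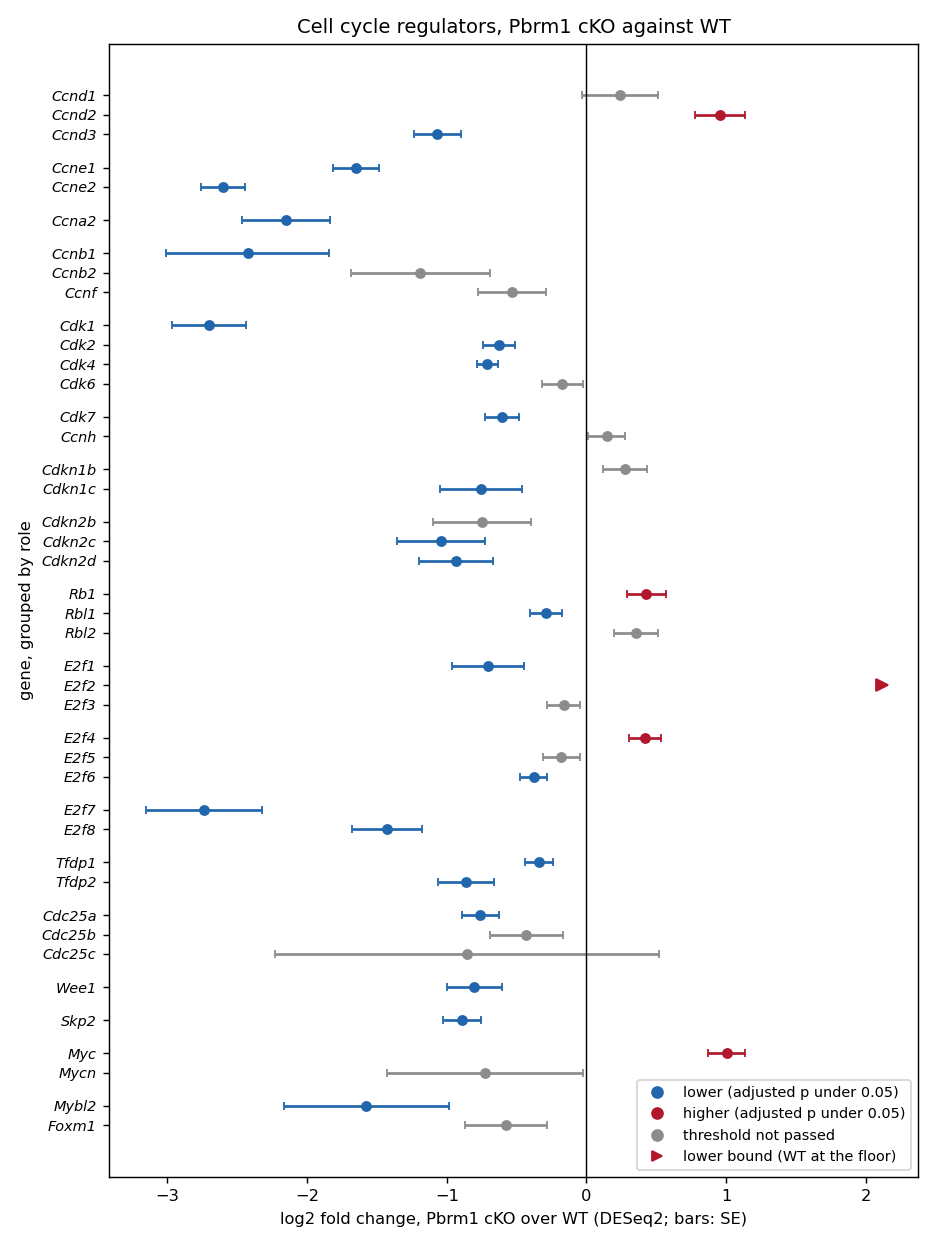
Log2 fold change of each tested cell cycle regulator in Pbrm1 cKO over WT (x axis; points are DESeq2 estimates, bars their standard errors), grouped by role (y axis). Points left of 0 are lower in Pbrm1 cKO: Cdk1, E2f7 and Ccne2 lie beyond -2.5, whereas Ccnd2 and Myc lie near 1. The triangle of E2f2, marked as a lower bound, is set against the floor of 3 counts in each WT library. It leaves out sampling error.

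Promoters of these genes are known to carry short sequences that E2F, Myc and the complexes of G2/M genes read. A window from 250 bases before to 50 bases after the start site (RefSeq, GRCm38.p6) was found for 31 of the 44 genes, in 39 windows. The windows of Cdk1 and E2f7, which had the strongest falls among those with a window, of E2f2, which rose and for which the first of its 2 windows is printed, and of Cdk4, the most abundant kinase of the set, are shown 5′ to 3′ on the strand of the gene. Capitals mark E2F letters (TTTCCCGC, TTTCGCGC, TTTGCCGC or TTTGGCGC), the cell cycle homology region or CHR (TTTGAA or TTCGAA), the CCAAT box (CCAAT) and the E-box bound by Myc (CACGTG), each searched on both strands.
Cdk1 (chr10:69352863-69353162, minus strand): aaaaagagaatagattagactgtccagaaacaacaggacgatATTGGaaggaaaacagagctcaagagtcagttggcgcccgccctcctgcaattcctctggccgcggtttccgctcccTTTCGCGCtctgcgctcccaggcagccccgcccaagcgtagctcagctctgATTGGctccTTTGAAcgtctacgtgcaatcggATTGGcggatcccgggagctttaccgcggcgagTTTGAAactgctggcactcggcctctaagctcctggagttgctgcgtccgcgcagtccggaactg
E2f7 (chr10:110745189-110745488, plus strand): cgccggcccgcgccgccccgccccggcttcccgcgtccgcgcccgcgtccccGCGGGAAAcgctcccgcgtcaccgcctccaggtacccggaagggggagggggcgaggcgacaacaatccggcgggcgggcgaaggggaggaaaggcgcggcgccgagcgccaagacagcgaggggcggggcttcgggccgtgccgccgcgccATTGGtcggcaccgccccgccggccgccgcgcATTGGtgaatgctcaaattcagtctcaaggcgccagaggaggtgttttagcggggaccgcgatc
E2f2 (chr4:136172024-136172323, plus strand): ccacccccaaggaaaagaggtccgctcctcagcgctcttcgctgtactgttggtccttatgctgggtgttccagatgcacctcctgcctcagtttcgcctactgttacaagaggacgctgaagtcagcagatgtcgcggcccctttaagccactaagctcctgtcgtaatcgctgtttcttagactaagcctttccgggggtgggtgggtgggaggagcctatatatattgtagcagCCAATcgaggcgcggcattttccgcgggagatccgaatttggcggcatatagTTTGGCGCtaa
Cdk4 (chr10:127063285-127063584, plus strand): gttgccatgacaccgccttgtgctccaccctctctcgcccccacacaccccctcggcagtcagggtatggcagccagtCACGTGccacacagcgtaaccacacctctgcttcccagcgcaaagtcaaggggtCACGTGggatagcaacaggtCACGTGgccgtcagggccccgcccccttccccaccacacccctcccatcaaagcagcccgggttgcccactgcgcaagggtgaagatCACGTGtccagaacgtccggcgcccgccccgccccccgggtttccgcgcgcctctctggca

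The Cdk1 window held an E2F match that begins 131 bases before the start site, CHR matches 71 and 15 bases before it and 3 CCAAT boxes. The E2f7 window held an E2F match at 198 bases before the start site, read on the opposite strand, and the printed E2f2 window held one 39 bases after it. The other window of E2f2, chr4:136180532-136180831, held 3 CCAAT boxes and a CHR 31 bases before its start site, and the CHR counted for E2f2 lies in that window. The Cdk4 window held 4 E-boxes, the nearest 11 bases before the start site. Across the set, E2F letters stood in 10 of the 31 genes with a window (28.2% of their 39 windows, against 2.26% of all 32851 windows). They were Cdk1, Cdk2, Cdc25a, E2f7, Rbl1 and Tfdp1, which fell, E2f2, which rose, E2f3 and Mycn, which did not pass the threshold, and Cdkn2a, which could not be tested. A CHR stood in 11 of the 31, of which Cdk1, E2f8 and Skp2 fell and E2f2 rose, while Ccnb2, Ccnf, Cdc25b, Cdkn2b, E2f3, Mycn and Rbl2 did not pass (28.2% of the 39 windows, against 19.2% of all windows). A CCAAT box stood in 18 of the 31 (48.7% of the 39 windows, against 37.4% of all windows). An E-box stood in 6 of the 31, namely Cdk4, Cdk7, Cdkn2c, Tfdp1, Cdk6 and E2f3 (15.4% of the 39 windows, against 7.15% of all windows). These matches describe the letters in the windows only.

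The 3 D-type cyclins, which couple growth signals to Cdk4 and Cdk6, did not move together: Ccnd2 rose, Ccnd3 fell and Ccnd1 did not pass the threshold. Ccnd2 gave 1015, 768 and 1363 normalized counts in WT against 2052, 2183 and 1878 in Pbrm1 cKO. Every Pbrm1 cKO library lay above every WT library, and the level rose 1.94-fold (log2 fold change 0.96 ± 0.18 SE, adjusted p = 1.24e-06). Ccnd3 went the other way, from 836, 648 and 596 to 373, 336 and 283, or to 47.7% of WT (log2 fold change -1.07 ± 0.17, adjusted p = 3.59e-09). Ccnd1 was the least abundant of the 3, at 69.5, 111 and 152 in WT against 147, 125 and 121 in Pbrm1 cKO. Its groups overlapped (log2 fold change 0.24 ± 0.27, adjusted p = 0.574), and WT replicate 1, the lowest library, decided its sign, since the fit without it gave -0.01.

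Scaled to gene length, the D-type cyclins together stood at 14.5 ± 2.22 CPM per kb of gene in WT (SD, n = 3) against 19.3 ± 1.32 in Pbrm1 cKO, and their make-up shifted. Ccnd2 took 51.4% ± 6.95 of this total in WT and 76.8% ± 1.80 in Pbrm1 cKO, and Ccnd3 37.6% ± 8.63 and 13.3% ± 1.08. The share of Ccnd1 was 11.05% ± 3.70 and 9.88% ± 0.87. Ranges of the Ccnd2 and Ccnd3 shares did not overlap between the genotypes.

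E-type cyclins, the partners of Cdk2 at the entry to S phase, had some of the clearest falls. Ccne2, on chromosome 4 at 11191351 to 11204779, gave 614, 637 and 679.9 normalized counts in WT against 116, 87.1 and 115 in Pbrm1 cKO. The highest Pbrm1 cKO library was far under the lowest WT library, and the level fell to 16.5% of WT (log2 fold change -2.60 ± 0.16, adjusted p = 5.03e-59, the smallest of the set). Ccne1 fell to 31.9% of WT, from 295, 295 and 329 to 98.7, 97.5 and 96.6 (log2 fold change -1.65 ± 0.16, adjusted p = 1.03e-21). The Pbrm1 cKO libraries of Ccne1 were tightly grouped, at 97.6 ± 1.01 normalized counts (SD, n = 3). Per length, the pair summed to 20.3 ± 1.14 CPM per kb in WT and 4.60 ± 0.35 in Pbrm1 cKO, and the share of Ccne1 in it was 38.4% ± 0.54 and 54.8% ± 4.04.

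The cyclins of S phase and mitosis were less abundant per length than those of the E type. Ccna2, the A-type cyclin of dividing somatic cells, fell from 143, 96.6 and 94.0 normalized counts to 32.6, 22.4 and 20.6, or to 22.6% of WT (log2 fold change -2.15 ± 0.32, adjusted p = 2.14e-10). Ccna1, known mainly from the germ line, had 0 counts in all 6 libraries, and a count of 0 allows up to 3 counts, or 0.164 to 0.226 CPM depending on the library, for counting error only. Ccnb1, the main partner of Cdk1 in mitosis, fell from 50.2, 36.6 and 22.7 to 7.89, 10.4 and 1.88 (log2 fold change -2.43 ± 0.58, adjusted p = 0.000247), with a wide standard error at these counts. Ccnb2 gave 21.4, 26.6 and 21.6 in WT against 10.9, 11.2 and 8.44 in Pbrm1 cKO, and although the groups did not overlap it missed the threshold (log2 fold change -1.19 ± 0.50, adjusted p = 0.0524). Ccnf, which directs a ubiquitin ligase in G2, averaged 90.4 ± 12.1 and 62.6 ± 1.72 (log2 fold change -0.53 ± 0.24, adjusted p = 0.0799). Both Ccnb2 and Ccnf passed with edgeR and with limma voom (adjusted p over all alternatives 0.00776 to 0.206 for Ccnb2 and 0.0272 to 0.264 for Ccnf). About 23.4% of the 50-base stretches of Ccnb1 transcripts also occur in other genes, among them its pseudogene Ccnb1-ps, so part of its reads may have been left out of the count. Stretches of Ccne2, Ccna2, Ccnd1, Cdk4, Cdkn1c, Rb1 and Rbl2 are shared mainly with genes that overlap them on the opposite strand (Ints8 and Exosc9 for the first pair), which counting in reverse-stranded mode assigns by strand.

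**Figure D2:**
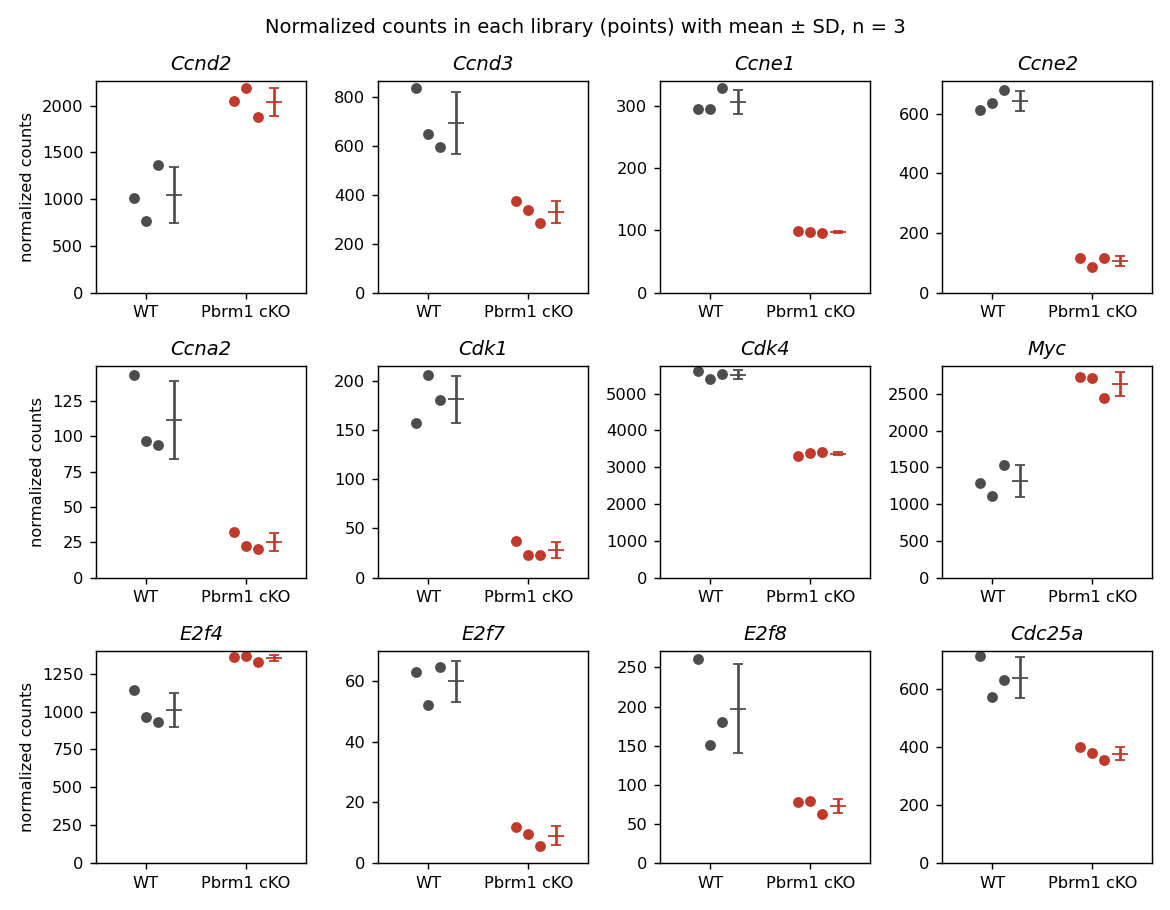
DESeq2 normalized counts of 12 of the regulators (y axes, from 0) in WT and Pbrm1 cKO libraries, each library a point and each cross with bar the mean ± SD of 3 libraries. Ccnd2, Myc and E2f4 are higher in all 3 Pbrm1 cKO libraries than in any WT library, and the other 9 genes are lower in all 3.

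Of the 4 cell cycle CDKs, 3 fell. Cdk1, the mitotic kinase, on chromosome 10 at 69335146 to 69352938, had the strongest fall among them, from 157, 205 and 181 normalized counts in WT to 37.5, 23.2 and 23.5 in Pbrm1 cKO, 15.5% of WT (log2 fold change -2.70 ± 0.27, adjusted p = 3.31e-22). Cdk4, the partner of the D-type cyclins, was the most abundant gene of the set per length and gave 5625, 5400.4 and 5519 in WT against 3315, 3382 and 3403 in Pbrm1 cKO. Its replicates were close together in both genotypes, and it fell to 61.0% of WT (log2 fold change -0.71 ± 0.08, adjusted p = 1.96e-19). Cdk2, the kinase of the E-type and A-type cyclins, averaged 815 ± 64.7 and 528 ± 29.1 (SD, n = 3), a fall to 64.8% of WT (log2 fold change -0.63 ± 0.12, adjusted p = 1.27e-06). Cdk6, the other kinase of the D-type cyclins, was at 264 ± 12.3 and 233 ± 15.2, its groups overlapped, and it missed the threshold (log2 fold change -0.17 ± 0.15, adjusted p = 0.415). It passed only where a trend of fold change with gene length was removed (log2 fold change -0.36, adjusted p = 0.0442, with 0.0442 to 0.635 over all alternatives).

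Per length, these kinases summed to 127.6 ± 1.77 CPM per kb in WT and 78.4 ± 1.604 in Pbrm1 cKO. Cdk4 took 90.1% ± 0.59 and 90.6% ± 0.25 of that. Cdk1 took 1.95% ± 0.29 and 0.50% ± 0.15.

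The CDK-activating kinase, which phosphorylates the other CDKs and also belongs to the transcription factor TFIIH, is made of Cdk7 and its cyclin, Ccnh, with Mnat1. Cdk7 fell from 1432, 1734 and 1679 normalized counts to 968, 1036 and 1178 (log2 fold change -0.61 ± 0.12, adjusted p = 7.72e-06). Ccnh averaged 353 ± 27.7 in WT and 390.3 ± 22.7 in Pbrm1 cKO, with overlapping groups (log2 fold change 0.15 ± 0.13, adjusted p = 0.463). Mnat1, which is not among the 44 genes and was singled out after its values were seen, fell from 739, 872 and 826 to 515, 512 and 544 (log2 fold change -0.63 ± 0.12, adjusted p = 6.20e-07).

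Of the 5 CDK inhibitors that could be tested, 3 fell as well. Among the INK4 proteins, which bind Cdk4 and Cdk6, Cdkn2c (p18) gave 62.0, 131 and 106 normalized counts in WT against 53.3, 48.7 and 43.2 in Pbrm1 cKO (log2 fold change -1.04 ± 0.31, adjusted p = 0.00425). Its WT libraries were spread widely, WT replicate 1 being the lowest, and the call was lost without WT replicate 2, the highest (log2 fold change -0.80, adjusted p = 0.0811, the highest over all alternatives). Cdkn2d (p19), the most abundant INK4 gene per length, fell from 75.9, 84.3 and 80.0 to 38.5, 46.3 and 40.3, or to 52.1% of WT (log2 fold change -0.94 ± 0.27, adjusted p = 0.00231). Cdkn2b (p15) averaged 46.4 ± 8.93 and 27.6 ± 5.09 and missed the threshold (log2 fold change -0.75 ± 0.35, adjusted p = 0.0916), which it passed with edgeR and limma voom (0.0308 to 0.295 over all alternatives). Cdkn2a, the locus of p16 and p19Arf, had 0, 0 and 1 counts in WT against 1, 2 and 1 in Pbrm1 cKO, at the floor in both groups.

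Among the Cip/Kip proteins, which bind CDKs together with their cyclins, Cdkn1b (p27) was the most abundant inhibitor of the set per length and gave 339.9, 382 and 493 normalized counts in WT against 454, 511 and 506 in Pbrm1 cKO. Its groups overlapped through WT replicate 3, and it was not called (log2 fold change 0.28 ± 0.16, adjusted p = 0.194), but it was called without that library (log2 fold change 0.44, adjusted p = 0.00854, the lowest over all alternatives, which reached 0.437). Cdkn1c (p57), an imprinted gene, averaged 64.4 ± 5.30 and 38.05 ± 6.44 and fell (log2 fold change -0.75 ± 0.29, adjusted p = 0.0349). That call was lost in each fit without 1 of the 6 libraries (adjusted p of 0.0585 to 0.160). Per length, the 6 inhibitors summed to 16.4 ± 2.40 CPM per kb in WT and 13.1 ± 0.80 in Pbrm1 cKO, ranges that overlapped, while the share of Cdkn1b went from 36.7% ± 3.56 to 56.2% ± 1.25.

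Cdkn1a (p21), a Cip/Kip inhibitor from the wider list described below, rose beside them, with 315, 373 and 947 normalized counts in WT against 1397, 1515 and 1356 in Pbrm1 cKO (log2 fold change 1.38 ± 0.50, adjusted p = 0.0212). WT replicate 3 lay far above the other WT libraries but under every Pbrm1 cKO library. Without it the log2 fold change was 2.04 (adjusted p = 4.16e-57), whereas the call was lost without WT replicate 1 (0.0535), WT replicate 2 (0.113), or Pbrm1 cKO replicate 1 (0.0953), 2 (0.117) or 3 (0.0833).

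**Figure D3:**
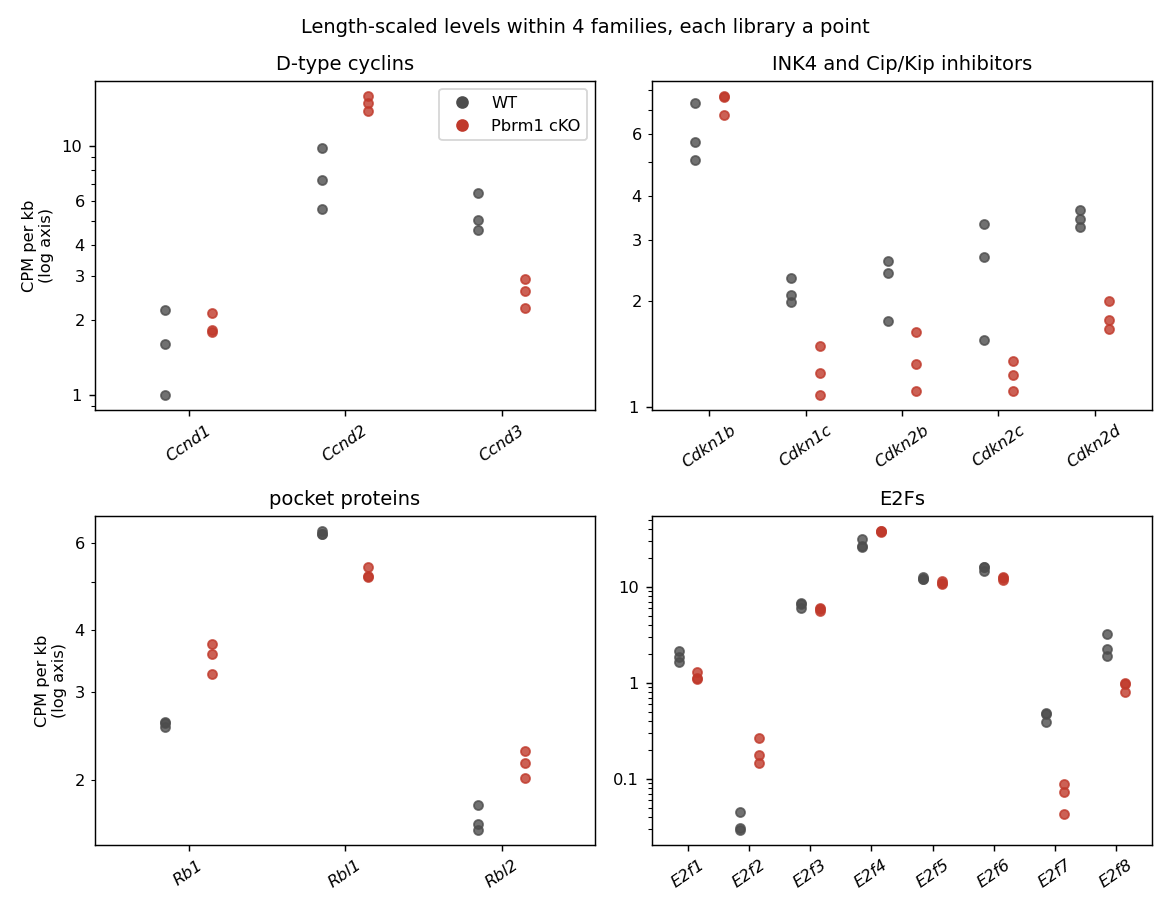
Levels per gene length (CPM per kb, log axes) of the D-type cyclins, the CDK inhibitors, the pocket proteins and the E2Fs, with each of the 3 WT and 3 Pbrm1 cKO libraries a point. Ccnd2 rises above and Ccnd3 falls under its WT range, Cdkn1b overlaps its own, and E2f4 is the highest E2F in every library (Cdkn2a, at the floor, is left out).

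The 3 pocket proteins, which bind E2Fs and silence their targets, differed little between the genotypes and not in the same direction. Rb1 rose from 233, 226 and 231 normalized counts in WT to 288, 316 and 326 in Pbrm1 cKO (log2 fold change 0.43 ± 0.14, adjusted p = 0.0106), a call lost without WT replicate 2 (adjusted p = 0.0522) or Pbrm1 cKO replicate 2 (0.0858) or 3 (0.0768), with 0.00855 to 0.0953 over all alternatives. Rbl1 (p107), itself known as an E2F target, was the most abundant per length and fell from 556, 550.5 and 561 to 469.6, 449.8 and 445 (log2 fold change -0.29 ± 0.11, adjusted p = 0.0324), a small difference whose call was lost in each fit without 1 of the 6 libraries (0.0510 to 0.159). Rbl2 (p130), which accumulates in resting cells, averaged 186 ± 10.6 and 237 ± 13.4, with groups that did not overlap and a p that missed the threshold (log2 fold change 0.35 ± 0.16, adjusted p = 0.0689), although it passed with edgeR and limma voom (0.0268 to 0.261 over all alternatives). Per length, the 3 summed to 10.5 ± 0.07 CPM per kb in WT and 10.9 ± 0.27 in Pbrm1 cKO. The share of Rbl1 was 59.6% ± 0.52 and 47.8% ± 2.24, that of Rb1 24.6% ± 0.41 and 32.4% ± 1.49, and that of Rbl2 15.8% ± 0.89 and 19.7% ± 0.77, with no overlap between the genotypes for any of them.

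The atypical E2Fs E2f7 and E2f8, repressors that bind DNA without a DP partner and are themselves E2F targets, both fell. E2f7, on chromosome 10 at 110745439 to 110787384, had the lowest fitted log2 fold change of the whole set and fell from 63.1, 52.2 and 64.9 normalized counts to 11.8, 9.59 and 5.63, 15.02% of WT (-2.74 ± 0.42, adjusted p = 1.11e-09). E2f8 fell to 37.1% of WT, from 261, 151 and 181 to 77.9, 79.1 and 62.9 (log2 fold change -1.43 ± 0.25, adjusted p = 1.42e-07), and WT replicate 1 was its highest library. Together they stood at 2.91 ± 0.73 CPM per kb in WT and 0.99 ± 0.13 in Pbrm1 cKO.

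Of the activator E2Fs, E2f3 was the most abundant and gave 528, 537 and 478 normalized counts in WT against 468, 473 and 437 in Pbrm1 cKO, a small difference that was not called (log2 fold change -0.16 ± 0.12, adjusted p = 0.334). E2f1, the classic activator of S phase genes, averaged 88.6 ± 12.5 and 54.2 ± 5.75 and fell (log2 fold change -0.70 ± 0.26, adjusted p = 0.0221), a call lost without any single library other than WT replicate 2 (0.05395 to 0.109 in those 5 fits). E2f2 had only 2, 2 and 3 raw counts in WT, at the floor, and 13, 24 and 11 in Pbrm1 cKO. Set against 3 counts in each WT library, E2f2 was 4.33-fold higher, a value that leaves out sampling error. The fit gave a log2 fold change of 2.48 ± 0.82 (adjusted p = 0.0108). That call was lost without Pbrm1 cKO replicate 2, the highest library (0.117, the highest over all alternatives). Without that library 3 regulators passed as higher, in place of 5.

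The E2Fs classed as repressors, E2f4, E2f5 and E2f6, were the most abundant per length. E2f4 gave 1142, 963 and 934 normalized counts in WT against 1363, 1369.5 and 1330.5 in Pbrm1 cKO and rose 1.34-fold (log2 fold change 0.42 ± 0.11, adjusted p = 0.00102). E2f6, which works through Polycomb proteins in place of pocket proteins, fell from 1239, 1326 and 1356 to 966, 1040.3 and 1011 (log2 fold change -0.38 ± 0.10, adjusted p = 0.000643). E2f5 averaged 322 ± 9.18 and 285 ± 7.80 and showed no call (log2 fold change -0.18 ± 0.13, adjusted p = 0.334). Per length, the 8 E2Fs summed to 67.1 ± 3.11 CPM per kb in WT and 69.2 ± 0.83 in Pbrm1 cKO, of which E2f4 took 41.6% ± 2.51 and 54.8% ± 0.59, E2f6 23.4% ± 2.18 and 17.6% ± 0.52, and E2f8 3.64% ± 0.87 and 1.33% ± 0.15. Both DP proteins, the partners through which E2Fs bind DNA, fell: Tfdp1, the more abundant, from 1464, 1364 and 1558 normalized counts to 1159, 1195 and 1114 (log2 fold change -0.34 ± 0.10, adjusted p = 0.0033), and Tfdp2 from an average of 168 ± 21.4 to 92.5 ± 3.56 (log2 fold change -0.86 ± 0.20, adjusted p = 0.000108). About 16.8% of the 50-base stretches of Tfdp1 transcripts also occur in another gene, Gm7390.

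Of the genes that switch CDKs on and off by other means, Cdc25a, Wee1 and Skp2 fell. Cdc25a, a phosphatase that frees CDKs from inhibitory phosphates at the entry to S phase, fell from 713, 573 and 632 normalized counts to 399, 379 and 356 (log2 fold change -0.76 ± 0.13, adjusted p = 1.33e-07). Its relatives of G2/M were scarcer: Cdc25b averaged 81.8 ± 3.60 and 60.4 ± 12.7 without passing (log2 fold change -0.43 ± 0.26, adjusted p = 0.218), and Cdc25c had 8, 2 and 1 raw counts in WT against 2, 0 and 5 in Pbrm1 cKO, too few to read a direction. Wee1, the kinase that adds those phosphates, fell from 311, 221 and 219 to 155, 143 and 133 (log2 fold change -0.80 ± 0.20, adjusted p = 0.000289). Skp2, the ubiquitin ligase subunit that marks p27 for destruction, fell from 429, 447 and 442 to 216, 252 and 241, or to 53.8% of WT (log2 fold change -0.89 ± 0.13, adjusted p = 7.21e-10).

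Myc, a transcription factor that promotes growth and entry into the cycle, went against the prevailing direction. It gave 1288, 1111 and 1539 normalized counts in WT against 2732, 2717 and 2449.9 in Pbrm1 cKO, every Pbrm1 cKO library above every WT library, and rose 2.01-fold (log2 fold change 1.00 ± 0.13, adjusted p = 5.82e-13). It made up 99.3% ± 0.29 of the length-scaled level of the Myc pair in WT and 99.8% ± 0.07 in Pbrm1 cKO, and Mycn, the other member, had 6 to 12 raw counts in each library (log2 fold change -0.73 ± 0.70, adjusted p = 0.49). Mybl2, which with Foxm1 turns on the genes of G2/M, gave 22.4, 17.8 and 16.2 normalized counts in WT against 7.89, 6.39 and 4.69 in Pbrm1 cKO (log2 fold change -1.57 ± 0.59, adjusted p = 0.0271). At these low counts its call was lost in each fit without 1 of the 6 libraries (adjusted p of 0.0549 to 0.113), although its groups did not overlap, and 19.3% of the 50-base stretches of its transcripts also occur in other genes. Foxm1 was the more abundant of this pair per length, at 63.1, 54.4 and 60.5 in WT against 40.4, 35.2 and 44.1 in Pbrm1 cKO, and missed the threshold (log2 fold change -0.58 ± 0.29, adjusted p = 0.123), which it passed with edgeR and limma voom (0.0339 to 0.364 over all alternatives).

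Other genes of the same pathways were read from 3 further lists. Of 35 genes of DNA replication and S phase that E2Fs are known to drive, 31 fell (88.6%, against 15.2% of all tested genes). In that list 0 rose (against 15.9%), also 0 at an unadjusted p under 0.05 and 0 with edgeR or limma voom. The median log2 fold change was -0.81. The lowest were Cdc6, which loads the replicative helicase (-2.97 ± 0.23, adjusted p = 4.02e-36), Tk1, thymidine kinase (-2.61 ± 0.43, adjusted p = 1.44e-08), and Mcm10, a replication initiation factor (-2.40 ± 0.31, adjusted p = 3.25e-13). Cdc6 gave 263, 264 and 219 normalized counts in WT against 26.6, 32.0 and 36.6 in Pbrm1 cKO. Their summed level was 1861 to 1953 CPM in WT and 1195 to 1205 in Pbrm1 cKO.

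Of 30 genes of mitosis, 18 fell (60%, against 15.2% of all tested genes). Here too 0 rose (against 15.9%), also 0 at an unadjusted p under 0.05 and 0 with edgeR or limma voom. The median was -1.33, and the summed level was 117.1 to 135.1 CPM in WT and 55.6 to 62.0 in Pbrm1 cKO. The lowest were the spindle checkpoint kinase Ttk (-2.64 ± 0.60, adjusted p = 0.0001) and the mitotic motors Kif2c (-2.62 ± 0.60, adjusted p = 0.0001) and Kif11 (-2.59 ± 0.40, adjusted p = 1.62e-09).

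The remaining list held 60 further cyclins, CDKs, Myc partners, ubiquitin ligase subunits and other regulators, of which 58 could be tested. In it 14 fell (24.1%, against 15.2% of all tested genes) and 11 rose (19.0%, against 15.9%), with a median of -0.08. Those that fell furthest were Cdc20, an activator of the anaphase-promoting complex (-1.89 ± 0.28, adjusted p = 4.25e-10), Mybl1, a relative of Mybl2 (-1.33 ± 0.31, adjusted p = 0.00012), and Fbxo5, an inhibitor of the anaphase-promoting complex (-1.23 ± 0.39, adjusted p = 0.00735). The call of Fbxo5 was lost without WT replicate 1 (0.0622) or 2 (0.0588) or Pbrm1 cKO replicate 1 (0.0568) or 2 (0.0637), with 0.00144 to 0.0661 over all alternatives. Those that rose furthest were Cdkn1a, described above, Cdk20 (1.01 ± 0.26, adjusted p = 0.000674) and Mnt, which competes with Myc for its partner Max (0.97 ± 0.15, adjusted p = 7.44e-09). Mnt gave 164, 159.8 and 162 normalized counts in WT against 328, 335 and 286 in Pbrm1 cKO. The number that fell dropped to 8 without WT replicate 2 or Pbrm1 cKO replicate 1 or 2 and to 9 without Pbrm1 cKO replicate 3, and the number that rose to 7 without WT replicate 2 and to 6 without Pbrm1 cKO replicate 1 or 2.

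**Figure D4:**
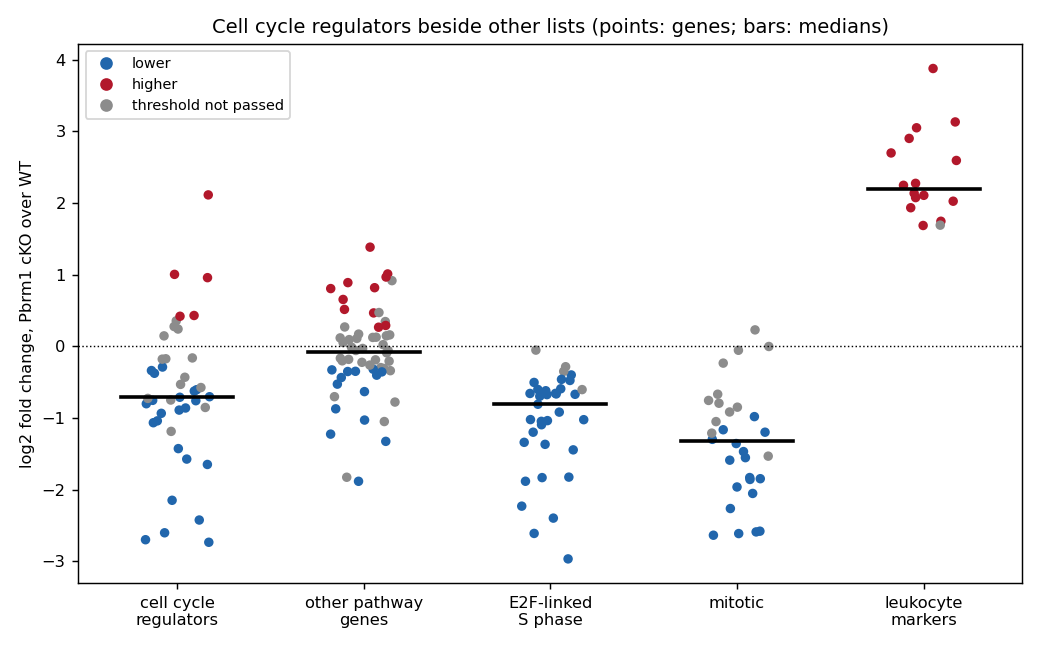
Log2 fold change in Pbrm1 cKO over WT (y axis) of each tested gene (points, blue lower, red higher, gray not past the threshold) in the cell cycle regulators, 3 further cell cycle lists and the leukocyte markers, with the median of each list as a bar (E2f2 is set against 3 counts in each WT library). The medians of the regulators (-0.71), the S phase list (-0.81) and the mitotic list (-1.33) lie under 0, that of the other pathway genes (-0.08) near 0, and that of the leukocyte markers at 2.19.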

How the data were processed

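RNA-seq counts of 6 libraries of primary uterine stromal cells, 3 WT and 3 Pbrm1 cKO, were analysed. The authors trimmed single-end reads of 50 bases with cutadapt 2.7, mapped them to GRCm38 with HISAT2 2.1.0 and counted them per gene with featureCounts 1.6.4, reverse-stranded, on the GENCODE annotation (mouse release 18). By the defaults of that program, reads that map to several places or overlap several genes are left out. The deposited table holds the raw counts of each gene, with replicates apart and no normalization. The labels describe random and poly(T) priming with depletion of unwanted transcripts, the study's methods poly(A) selection, and which applies is not settled. Symbols came from GENCODE release 21.

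Total counts were 13253575 to 18338667, and a count of 0 allows 3 counts. Where no library of a group exceeded 3 counts, the group was taken to be at the floor. Genotypes were compared in R 4.3.3 by the Wald test of DESeq2 1.42.0 (no covariates, default independent filtering) over all genes, with Benjamini-Hochberg adjustment at 0.05 and unshrunken fold changes, and all adjusted p-values are from DESeq2 unless another tool is named. The code was tested on simulated data. Principal components used log2(normalized count + 1) of the genes with the highest variance across the libraries only. CPM per kb (counts scaled to library size and gene length) used the gene length of the table and have no test. Alternatives were edgeR 4.0.16 (quasi-likelihood), limma 3.58.1 (voom by group), TMM size factors, a gene length trend removed, another filter or none, an adjusted p of 0.01, a replicate block and leaving out each library. Promoter letters were searched in RefSeq windows (GRCm38.p6). The 44 genes, the lists and the rule for named genes were chosen with earlier results of these data known. By that rule every regulator is accounted for, with values in every library for those past the threshold and changed at least 2-fold and for the most abundant of each role. It also names Pbrm1, the defining markers of cell types (among them Vim, Pdgfra, Ptprc and Cd74) and, from other lists, at most the 3 lowest and 3 highest called genes. Mnat1 was named outside the rule.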

Additional observations from a re-analysis of the deposited data

How the results depend on the processing

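Of the 28 calls among the cell cycle regulators, 21 held under each of the 14 alternatives that gave a value, and none changed sign. The numbers of regulators, S phase genes and mitotic genes that fell stayed within 1.5 times the main counts under every alternative. With a replicate block, 3 regulators passed as higher, and 7 of the other pathway genes passed as lower and 7 as higher. Same-numbered libraries deviated from their group means with correlations of 0.0401, -0.0388 and -9e-04. These values show no pairing by replicate number but, with 3 libraries per group, cannot exclude it. At an adjusted p of 0.01, 9 other pathway genes passed as lower. Leaving out 1 library at a time gave 3 to 6 regulators higher, and 8 to 14 other pathway genes lower and 6 to 13 higher. It turned Ccnd1, which had no call, within -0.01 to 0.537 (log2; -0.01 without WT replicate 1), and Cdc25c, at 0 to 8 counts, within -2.065 to 0.413 (0.413 without WT replicate 1). The cause was not tested for any of these. Depth limits Cdkn2a, Ccna1, Cdc25c, Mycn and E2f2, and intervals and floors cover counting error only.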
